A study of Mus musculus with 6 samples.

Results

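Sites that kept part of their UTX CUT&Tag signal in T cells lacking UTX were examined in mouse progenitor CD8 T cells. A site was a member when its deposited concentration (log2 of the mean normalized reads of a group) was at least 4.3 in WT and above 0 in UTX-deficient cells, and when WT exceeded UTX-deficient cells by at most 3.5. Of the 6739 sites in the authors' deposited table, 244 met this rule, and sites with a higher level in UTX-deficient cells were left out. The comparison is made throughout with the 5301 other sites that had the same WT minimum and were not higher in UTX-deficient cells, of which 1728 lay at the floor of 0 in UTX-deficient cells and 3573 above it with a larger difference. Members made up 4.40% of the 5545 sites with the WT minimum (exact 95% interval 3.88 to 4.97, which treats sites as independent although they are not).

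The groups were 3 samples of UTX-deficient NY8.3 mice, in which UTX was deleted specifically in T cells, and 3 samples of WT NY8.3 mice. All animals carried the NY8.3 transgenic T cell receptor, which recognises an islet antigen, on the diabetes-prone NOD background, and every sample came from CD8 T cells sorted as Ly108+CXCR6- from the pancreatic lymph node. The promoter that drove the deletion, the deleted part of the gene, the age of the mice and any pooling of animals do not stand in the sources used here. UTX-deficient cells served to show which signal depends on UTX.

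UTX, encoded by Kdm6a on chromosome X, removes methyl groups from lysine 27 of histone H3 and is a subunit of the KMT2C and KMT2D complexes that methylate lysine 4 of histone H3 at enhancers and promoters. In CUT&Tag an antibody tethers the transposase Tn5 to chromatin, which is cut and tagged near the bound protein.

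Promoter sequences are shown for 5 named member sites that share at least 150 bases with a window around an annotated start, of 87 members that do so, to give examples of the DNA under the residual signal. They are those with the highest UTX-deficient level whose upstream bases lie outside every annotated gene. Each is the 250 bases before a start (RefSeq, GRCm38.p6, the assembly of mm10), given 5′ to 3′ along the gene's strand, and capitals mark matches on either strand to the motifs of NFY (CCAAT), SP and KLF factors (GGGCGG), ETS factors (CCGGAAG), E-box proteins (CACGTG) and the TATA box (TATAAA). The windows are chr10:96616751-96617000 on the plus strand for Btg1, chr11:106779538-106779787 on the minus strand for Polg2, chr7:41633281-41633530 on the plus strand for Zfp788, chrX:74270566-74270815 on the plus strand for Rpl10 and chr9:61370491-61370740 on the minus strand for Gm34157, whose member site the authors assigned to Tle3.
Btg1: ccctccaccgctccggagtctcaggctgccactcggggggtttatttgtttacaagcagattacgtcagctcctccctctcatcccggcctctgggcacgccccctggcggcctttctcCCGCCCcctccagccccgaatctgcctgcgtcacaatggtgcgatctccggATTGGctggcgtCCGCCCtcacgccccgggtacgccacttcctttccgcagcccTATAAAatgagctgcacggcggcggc
Polg2: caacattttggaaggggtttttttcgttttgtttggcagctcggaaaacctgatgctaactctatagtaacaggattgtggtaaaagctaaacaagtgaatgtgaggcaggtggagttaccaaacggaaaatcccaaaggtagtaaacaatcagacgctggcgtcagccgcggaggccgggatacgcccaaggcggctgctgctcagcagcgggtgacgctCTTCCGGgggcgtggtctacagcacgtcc
Zfp788: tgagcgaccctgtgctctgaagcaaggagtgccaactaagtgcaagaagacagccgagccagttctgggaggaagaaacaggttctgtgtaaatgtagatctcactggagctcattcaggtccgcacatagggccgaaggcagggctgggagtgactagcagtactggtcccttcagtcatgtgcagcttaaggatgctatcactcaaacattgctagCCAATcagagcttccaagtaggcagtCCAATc
Rpl10: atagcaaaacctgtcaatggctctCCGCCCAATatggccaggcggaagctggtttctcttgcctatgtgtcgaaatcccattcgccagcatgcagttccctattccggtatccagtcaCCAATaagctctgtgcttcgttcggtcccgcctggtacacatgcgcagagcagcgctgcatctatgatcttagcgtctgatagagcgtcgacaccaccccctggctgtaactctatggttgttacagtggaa
Gm34157: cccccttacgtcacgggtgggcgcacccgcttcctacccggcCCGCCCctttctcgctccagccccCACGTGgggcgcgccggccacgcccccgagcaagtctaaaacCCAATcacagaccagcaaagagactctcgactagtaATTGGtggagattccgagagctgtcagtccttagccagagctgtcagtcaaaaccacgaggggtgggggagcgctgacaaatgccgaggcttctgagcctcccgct
The Btg1 and Gm34157 windows were rich in GC, at 65.2% and 63.2%, with 21 and 19 CG dinucleotides. The Polg2, Zfp788 and Rpl10 windows held 52.4%, 51.6% and 52.8% GC, with 15, 4 and 13 CG dinucleotides. The sites of Btg1, Rpl10 and Gm34157 covered all 250 bases shown, the site of Polg2 covered 227 of them and that of Zfp788 covered 204. A match of letters is a description and not evidence of a bound factor.

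Reads of single libraries were recovered from the deposited group values for all 244 members. The recovered libraries carry no replicate number and are numbered by depth within their group. Relative to a mean of 1, depth was 1.93, 1.07 and 0.00577 in UTX-deficient cells and 1.28, 0.916 and 0.792 in WT. The depth of 0.00577 was not found from reads. It is what the other depths leave when all depths are taken to average 1, and the search allowed only small remainders. On this reckoning the last UTX-deficient library was close to empty. It held 0 reads in the members and is called the near-empty library below. By that depth a single read there would be worth 173.2 normalized reads, above the highest WT value of any member (148), so its 0 sets no limit on the signal. Sites were assigned to genes by the authors, and a site near a gene does not measure its expression.

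The members had low WT signal to begin with and kept 11.1% of it in UTX-deficient cells on average. Their concentration had a median of 1.46 in UTX-deficient cells (0.815 to 4.26) and of 4.66 in WT (4.3 to 6.96), while the other sites had medians of 0.501 in UTX-deficient cells and 5.15 in WT. Averaged over members, the UTX-deficient libraries held 2.79, 7.34 and 0 normalized reads per site (3.38 ± 3.71, SD, n = 3) and the WT libraries held 30.5, 32.7 and 28.3 (30.5 ± 2.21, SD, n = 3). At the other sites UTX-deficient cells reached 3.69% of the WT mean, where the libraries held 1.18, 4.01 and 0 in UTX-deficient cells and 46.3, 51.4 and 43.0 in WT. The rule fixed these differences, so they describe the members and were not tested. The members' level was 4.58% of WT without UTX-deficient library 2, 12.0% without library 1 and 16.6% without the near-empty library. Libraries were also scaled to their reads in all sites higher in WT that were not members, including those below the WT minimum. With this scaling, which takes the shared loss out, and without the near-empty library, the members' level turned to 309% of WT. By site, the UTX-deficient level ranged from 8.87% to 33.8% of WT, with a median of 10.4%. These and the percentages of single sites below take the near-empty library as 0, and without it the range was 13.3% to 50.7% and the median 15.6%.

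Every member was still lower in each UTX-deficient library than in each WT library. This held for 244 of 244 members, beside 99.7% of all 6737 sites with recovered reads, and the rule used the same contrast, so nothing is read from the count. In the authors' deposited table the members had log2 folds from -2.92 to -0.967 with a median of -2.34, and the other sites from -6.36 to -2.16 with a median of -3.75. These folds were closer to 0 than the difference of the deposited concentrations, by a median of 0.897 at members and 0.884 at other sites. By limma on the recovered reads, all 244 members were called lower in UTX-deficient cells (adjusted p under 0.05 over all sites), beside 99.7% of all sites, with a median log2 difference of -3.26 for members and -4.26 for other sites. Without the near-empty library these medians were -2.53 and -3.79. All listed sites already had an FDR under 0.05 in the authors' test of this contrast. The limma calls largely follow from that selection, so nothing is read from them.

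**Figure D1:**
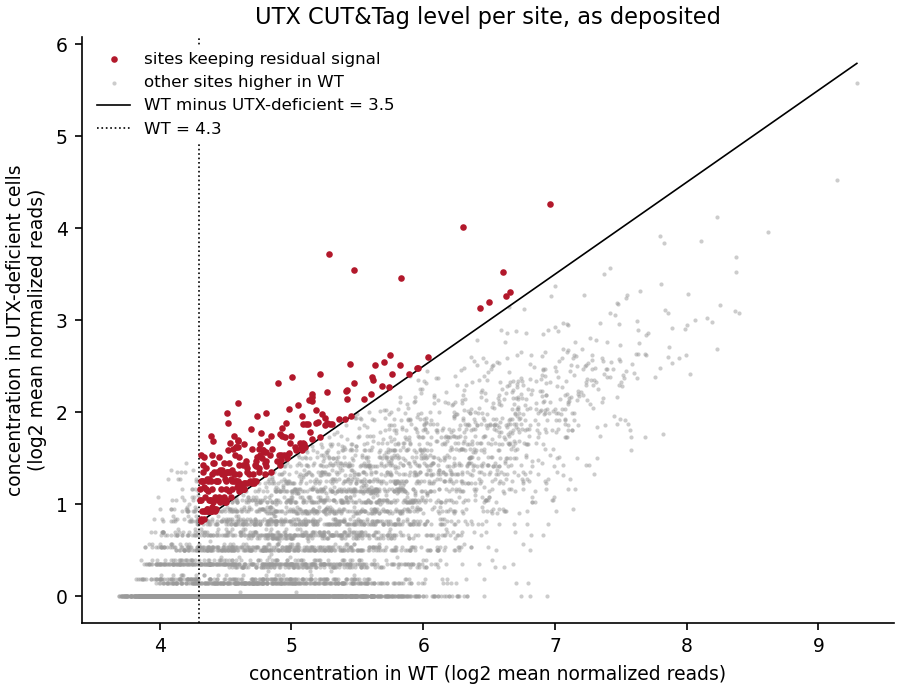
Deposited concentration in UTX-deficient cells (vertical axis) against WT (horizontal axis), both as log2 mean normalized reads, for the 6718 sites higher in WT. Red points are the 244 members, grey points all other sites, and the lines are the limits of the rule at 4.3 and 3.5. Most members lie at the low end of WT signal just above the sloping line, and a few lie well above it, at UTX-deficient levels over 3.

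Both well-sequenced UTX-deficient libraries held reads at all 244 members, though unequally. The rule asks for a level above 0 in UTX-deficient cells, so this count describes the members and is not set against the other sites. A member had a median of 4 reads (1 to 38) in library 1, the deeper one, and of 7 reads (1 to 44) in library 2. After scaling, library 1 reached 9.16% of the WT mean and library 2 reached 24.1%, and library 2 was the higher at 237 members and library 1 at 7. The same order held at most other sites, where library 2 was the higher at 4596 and library 1 at 639 of 5299. Library 1 gave 27.6% of the UTX-deficient signal at members and 22.7% at the other sites. With such low numbers the counting error is wide: the 4 reads of Med12 in library 2 carry an exact 95% Poisson interval of 1.09 to 10.2 reads, and intervals of this kind cover counting error only.

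Membership depended on which UTX-deficient library entered the group mean. With the rule applied to recovered reads without library 1, 473 sites met it, of which 217 were among the 244. Without library 2 only 9 sites met it, all among the 244, and without the near-empty library 1054 met it, among them all 244. Leaving out a WT library gave 246, 263 and 216 sites, which shared 198, 204 and 182 with the 244. At the limits of the rule, the sites just inside the difference of 3.5 were those of Med12 (3.495), Zfp407 (3.495) and Ptdss1 (3.492), and those just outside it Nipsnap3b (3.503), Bach2 (3.504) and Kdsr (3.504). Just inside the WT minimum lay Ifi35 (4.303), Mir5623 (4.305) and again Med12 (4.311), and just outside it Leng9 (4.298), Eif3f (4.292) and Tmem260 (4.292). Sites on either side of a limit thus lay close together in the value that decided membership.

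The site at Kdm6a, the gene targeted by the deletion, was itself a member. This site, inside the gene at positions 18162206 to 18162606 of chromosome X, had its middle 169 bp from an annotated start. It held 8, 12 and 0 reads in UTX-deficient cells and 65, 48 and 35 in WT, so the UTX-deficient level was 10.4% of WT. Its counting intervals in UTX-deficient cells were 3.45 to 15.8 reads in library 1 and 6.20 to 21.0 in library 2. Without knowledge of the deleted part, the site gives no check of the labels.

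Among members, the highest UTX-deficient signal lay on an unplaced contig and at 1 locus of chromosome 7. All 4 sites of the contig Un_JH584304 with the WT minimum were members, each assigned to the pseudogene Pisd-ps3. The highest of them, from 58761 to 59161, held 32, 44 and 0 reads in UTX-deficient cells and 141, 106 and 117 in WT, a level of 15.4% of WT. The one from 20935 to 21335 held 21, 26 and 0 reads in UTX-deficient cells and 48, 37 and 44 in WT, or 26.3%. The remaining contig sites, from 38839 to 39239 and from 59438 to 59838, held 26, 21 and 0 and 20, 26 and 0 reads in UTX-deficient cells, against 57, 57 and 51 and 102, 94 and 87 in WT. The least reduced member of all was a site assigned to the gene model 1600014C10Rik, on chromosome 7 from 38183522 to 38183922, with 35, 23 and 0 reads in UTX-deficient cells and 52, 34 and 31 in WT, or 33.8%. A further site of that gene model, from 38189429 to 38189829, kept 20.5%, with 38, 31 and 0 reads in UTX-deficient cells and 109, 67 and 62 in WT. Gene models known by a number were otherwise passed over, and both of these sites were picked with their values in view. Between 239 and 244 members were called by limma across the alternatives run, and the members that lost the call in at least 1 of them were Pisd-ps3 and 1600014C10Rik sites. Without both loci the members' mean UTX-deficient level was 10.6% of WT.

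Among the remaining members with the highest UTX-deficient level, a site assigned to Prss2, a trypsinogen gene, lay in the T cell receptor beta locus. It reached from 41532650 to 41533050 on chromosome 6, outside Prss2, with its middle 351 bp from an end of the diversity segment Trbd1. It held 23, 19 and 0 reads in UTX-deficient cells and 126, 114 and 64 in WT, or 9.74%. The other site of this locus, from 41554431 to 41554831, had the highest concentrations of any site higher in WT, 5.58 in UTX-deficient cells and 9.29 in WT, and its difference of 3.71 kept it out of the members. Likewise, a site assigned to Dad1 overlapped the variable segment Trav4-4-dv10 in the receptor alpha locus, on chromosome 14 from 53683336 to 53683736. It held 14, 9 and 0 reads in UTX-deficient cells and 63, 44 and 39 in WT, or 10.7%. Of 3 sites in the alpha locus and 2 in the beta locus, 1 each was a member, and the gamma locus held none.

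Several of the stronger members, and some with fewer reads, lay at genes of transcription factors. Lef1, which encodes a partner of TCF-1 in progenitor and naive T cells, held 16, 22 and 0 reads in UTX-deficient cells and 151, 82 and 71 in WT at an internal site on chromosome 3 from 131157343 to 131157743, or 9.68%. Zeb1, a repressor with roles in T cell memory, held 10, 14 and 0 reads in UTX-deficient cells and 61, 78 and 51 in WT, or 9.24%, at an internal site on chromosome 18 from 5593735 to 5594135. Jun, an AP-1 subunit, held 15, 20 and 0 reads in UTX-deficient cells and 121, 78 and 63 in WT, or 10.2%, at a site 69 bp from a start on chromosome 4, from 95052186 to 95052586. At each of these sites the lowest WT library stood well above the highest UTX-deficient one. A site 51504 bp from an end of Ets1, an ETS factor of T cell development, held 5, 8 and 0 reads in UTX-deficient cells and 39, 38 and 19 in WT. Batf, the partner of Jun proteins in activated T cells, had a start site with 3, 6 and 0 reads in UTX-deficient cells and 33, 20 and 10 in WT, or 11.9%. Irf4, which acts with Batf downstream of the receptor, had a site outside the gene with 7, 8 and 0 reads in UTX-deficient cells and 38, 38 and 30 in WT, or 10.2%.

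Members also lay at genes of proliferation control and receptor signalling. Btg1, an antiproliferative factor of resting lymphocytes, held 17, 20 and 0 reads in UTX-deficient cells and 102, 89 and 75 in WT at its start on chromosome 10, from 96616637 to 96617037, the promoter printed first above. A distal site assigned to Btg1, 102201 bp from the gene, held 7, 8 and 0 reads in UTX-deficient cells and 49, 41 and 26 in WT, and the UTX-deficient levels were 10.1% at the start and 9.56% at the distal site. Nfatc1, a calcium-dependent factor downstream of the receptor, had an internal member with 4, 11 and 0 reads in UTX-deficient cells and 41, 40 and 15 in WT, or 13.0%. In that gene the lowest WT library, with 15 reads, was close to the 11 reads of the second UTX-deficient library before scaling. Ptpn6, which encodes the phosphatase SHP-1, held 2, 5 and 0 reads in UTX-deficient cells and 27, 18 and 16 in WT. Egr3, induced by receptor signalling, had a member 98127 bp from the gene with 3, 6 and 0 reads in UTX-deficient cells and 36, 17 and 17 in WT.

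Surface receptors and egress genes were among the members as well. Cd28, the costimulatory receptor gene, had 2 member sites of 4 higher in WT. The one 4 bp from an end of the gene, on chromosome 1 from 60746184 to 60746584, held 9, 13 and 0 reads in UTX-deficient cells and 67, 61 and 54 in WT, or 8.96%. The internal one, from 60755768 to 60756168, held 9, 11 and 0 reads in UTX-deficient cells and 57, 48 and 29 in WT, or 11.2%. Cd47, whose product inhibits phagocytosis, had 2 members of 3 sites, with 7, 7 and 0 and 7, 5 and 0 reads in UTX-deficient cells against 43, 31 and 18 and 39, 28 and 22 in WT. S1pr1, whose product senses sphingosine 1-phosphate during lymph node egress, had 2 members of 6 sites, with 5, 7 and 0 and 4, 6 and 0 reads in UTX-deficient cells against 33, 28 and 24 and 34, 21 and 15 in WT. Picked with their values in view, Cd69, an antagonist of S1pr1, kept 12.6% of WT, Il18r1, a cytokine receptor gene, 12.9%, Sema4d, a semaphorin gene, 9.43%, and Gimap9, of a family of lymphocyte GTPases, 9.03%.

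Among the other members with the smallest differences, each rested on few reads in UTX-deficient cells. Zfp788, a zinc finger gene, held 5, 11 and 0 reads in UTX-deficient cells and 32, 25 and 16 in WT near its start, or 17.7%. Slc24a3, a sodium, potassium and calcium exchanger gene, held 9, 11 and 0 reads in UTX-deficient cells and 37, 30 and 22 in WT, or 16.7%. Pitrm1, a mitochondrial peptidase gene, held 5, 14 and 0 reads in UTX-deficient cells and 40, 27 and 28 in WT, or 16.3%. Fancb of the Fanconi anemia DNA repair complex, Vti1a, a vesicle fusion protein, Idh1, cytosolic isocitrate dehydrogenase, and Yipf6, a Golgi protein, kept 16.1%, 16.0%, 14.6% and 14.4%. The sites of Polg2 and Ankrd50 were named for other reasons and had larger differences, of 3.12 and 3.47. Polg2, the accessory subunit of the mitochondrial DNA polymerase, was named for its UTX-deficient level. It held 7, 16 and 0 reads in UTX-deficient cells and 72, 58 and 33 in WT at its start on chromosome 11, or 11.5%. Of all members, a start site of Ankrd50 had the smallest FDR in the authors' deposited table (2.06e-13, log2 fold -2.92), a gene of endosomal recycling, with 9, 13 and 0 reads in UTX-deficient cells and 69, 59 and 53 in WT.

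**Figure D2:**
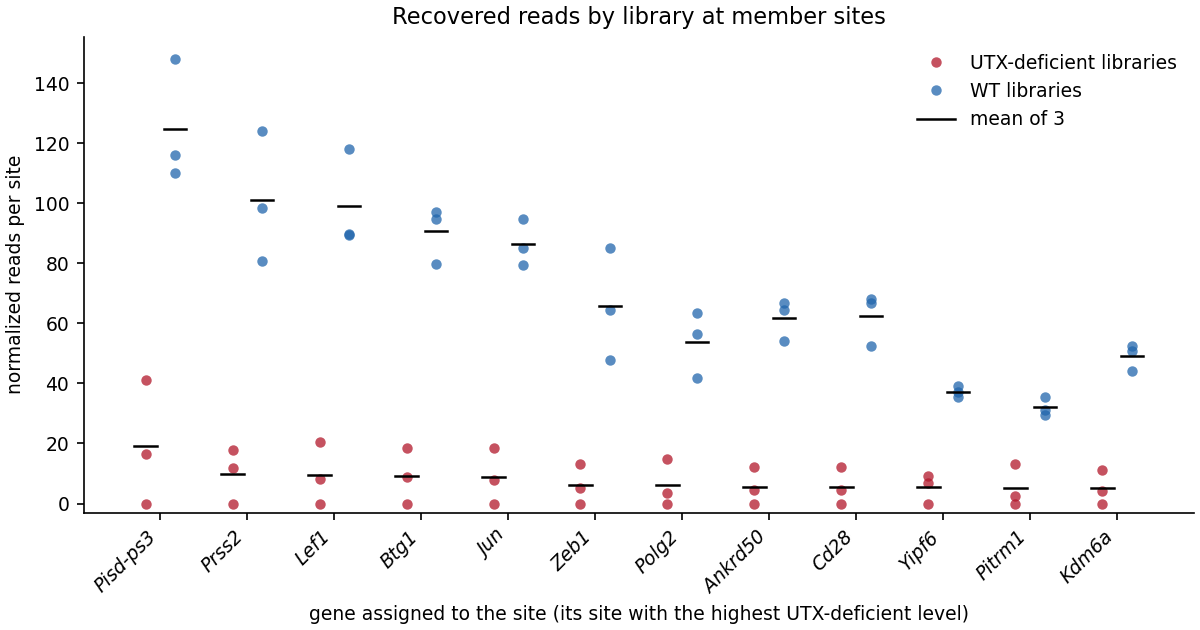
Normalized reads per library at 12 member sites, 1 per gene, with UTX-deficient libraries in red, WT libraries in blue and the mean of 3 as a bar. At each site the 3 WT points lie above the 3 UTX-deficient points, of which the lowest, at 0, is the near-empty library, and Pisd-ps3 has the highest UTX-deficient points.

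Single sites departed from the usual split between the UTX-deficient libraries. Library 1 gave 84.7% of the UTX-deficient signal at Acsl4, an acyl-CoA synthetase gene on chromosome X, with 10 reads in library 1 and 1 in library 2. Wdfy4, a gene of antigen cross-presentation, followed with 73.5%, Tbl1x, a corepressor subunit gene on chromosome X, with 55.5%, and Tle3, a Groucho corepressor gene, and Impdh1, of guanine nucleotide synthesis, with 52.6% each. At the other end, Rras2, a Ras-related GTPase gene, had 1 read in library 1 and 15 in library 2, so library 1 gave 3.56%. Mpp7, Bend4, Ankrd6 and Snora34 likewise had 1 read in library 1 and 9 to 12 in library 2, with shares of 4.42%, 5.25%, 5.80% and 5.80%.

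Chromosome X held a larger share of members than the autosomes. Of 80 sites on X with the WT minimum, 19 were members (23.8%, exact 95% interval 14.9 to 34.6), against 221 of 5459 on autosomes (4.05%, 3.54 to 4.61). The median difference between the genotypes was 4.29 over all such X sites and 4.6 over autosomal sites. The X sites also had a lower WT level, with means of 36.0, 39.4 and 31.9 normalized reads in the WT libraries. Autosomal sites had means of 45.7, 50.7 and 42.5, and X and autosomes were not compared at equal WT level. The 19 members lay at 19 genes, among them Kdm6a, Med12, which encodes a Mediator subunit, Rpl10, a ribosomal protein gene, Tsc22d3, a glucocorticoid-induced leucine zipper gene, and Gpr174, a lysophosphatidylserine receptor gene. Rpl10 held 8, 7 and 0 reads in UTX-deficient cells and 45, 27 and 21 in WT at its start, or 11.7%. Med12 held 3, 4 and 0 reads in UTX-deficient cells and 14, 26 and 16 in WT. Tsc22d3 held 11, 7 and 0 reads in UTX-deficient cells and 48, 31 and 30 in WT, and Gpr174 held 11, 9 and 0 in UTX-deficient cells and 39, 51 and 33 in WT. A cluster of members at Flna, Emd and Rpl10, which encode a cytoskeletal crosslinker, a nuclear envelope protein and a ribosomal protein, lay between 74246330 and 74270873. Genes other than Kdm6a, Med12, Rpl10, Fancb, Yipf6, Acsl4 and Tbl1x were picked from the X members with their values in view. Of X members, 63.2% lay within 1 kb of an end of the assigned gene, as did 63.9% of the other X sites.

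The level of X sites relative to autosomal sites was highest in UTX-deficient library 1. Over all sites with the WT minimum, the mean level of X sites was 2.28 times that of autosomal sites in UTX-deficient library 1 and 0.885 times in library 2, and 0.787, 0.778 and 0.752 times in the WT libraries. At sites that were not members these ratios were 2.05 and 0.755 in UTX-deficient cells and 0.814, 0.806 and 0.782 in WT. The rule set these sites apart by the same values, so their ratios are a description. Library 1 gave 43.1% of the UTX-deficient signal on X, from 433 reads against 317 in library 2, and 22.7% on autosomes. When the rule was applied without library 1, 17.5% of X sites and 8.34% of autosomal sites met it. Without library 2 the shares were 2.50% (2 of 80 X sites) and 0.0916%, from 9 sites in all, and without the near-empty library 46.2% and 18.6%. The X share was above the autosomal share in each of these settings, at a level that differed with the library left out. Without library 2 this rests on too few sites to be read. The sex of the mice is not given in the sources used here.

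**Figure D3:**
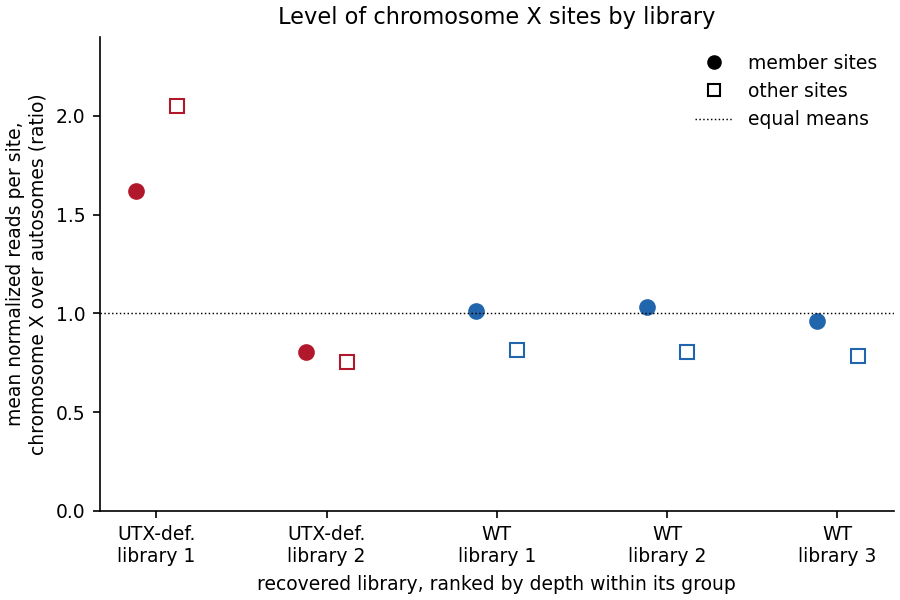
Ratio of mean normalized reads per site on chromosome X to that on autosomes (vertical axis) in each recovered library, for members (filled circles) and other sites with the WT minimum (open squares), with UTX-deficient libraries in red and WT libraries in blue. UTX-deficient library 1 stands at 1.62 and 2.05, and the other libraries lie between 0.755 and 1.03. The near-empty library had no reads in these sites and is not shown.

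The autosomes differed among themselves in the same measure. Chromosome 18 had 15 members of 142 sites (10.6%, exact 95% interval 6.03 to 16.8), chromosome 16 had 14 of 158 (8.86%), chromosome 6 had 19 of 242 (7.85%) and chromosome 3 had 18 of 238 (7.56%). At the low end stood chromosome 17 with 3 of 316 (0.949%, 0.196 to 2.75) and chromosome 11 with 7 of 526 (1.33%, 0.537 to 2.72). The WT level differed among chromosomes as well. The mean normalized reads per site in the WT libraries were 43.0, 47.2 and 39.9 on chromosome 18 and 46.3, 50.7 and 43.4 on chromosome 17. Shares were not compared at equal WT level. The share of members was higher on chromosomes with few genes per length. Across the 20 chromosomes it had a Spearman rho of -0.62 with the number of protein-coding genes per Mb, and of -0.57 over the 19 autosomes, given as a description because sites of all chromosomes come from the same libraries.

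**Figure D4:**
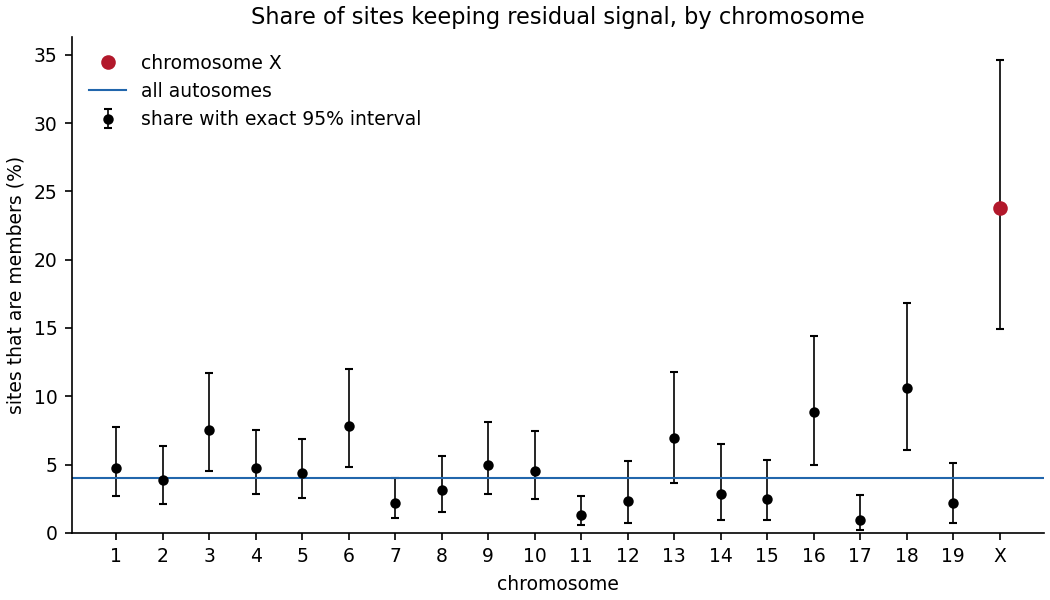
Share of sites with the WT minimum that were members (vertical axis, percent) on each chromosome, with exact 95% intervals as bars and the share over all autosomes as a line. Chromosome X, in red, stands at 23.8%, above each autosome, while chromosomes 11 and 17 lie lowest at 1.33% and 0.949%.

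Members lay somewhat farther from annotated transcription starts than the other sites. Within 1 kb of an annotated start were 106 of 225 members (47.1%, exact 95% interval 40.4 to 53.9), against 2811 of 5172 other sites (54.4%, 53.0 to 55.7). Farther than 10 kb from any annotated start were 39.1% of members (32.7 to 45.8) and 30.8% of other sites (29.6 to 32.1). The median distance was 1655 bp for members and 426 bp for other sites. Not every gene had a listed start, so some long distances can reflect missing annotation. For example, a site 2459 bp from an end of Egr3 was 519441 bp from the nearest listed start. Against the ends of the assigned gene, 112 of 236 members (47.5%) and 2790 of 5251 other sites (53.1%) lay within 1 kb, and 72.9% and 75.9% overlapped the gene. The difference in start distance was small at 250 bp, where 41.8% of members and 44.5% of other sites were included. By WT level, the share within 1 kb of a gene end was 49.7% for members and 55.4% for other sites with a concentration from 4.3 to 4.8, and 47.5% and 51.9% in the next bin of 0.5. In the bins above, with few members, it was 27.8% (5 of 18) for members and 52.9% for other sites, then 3 of 5 members and 51.7% of other sites, then 2 of 5 members and 52.2% of other sites. These intervals treat sites as independent, and no test was made between the sets.

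**Figure D5:**
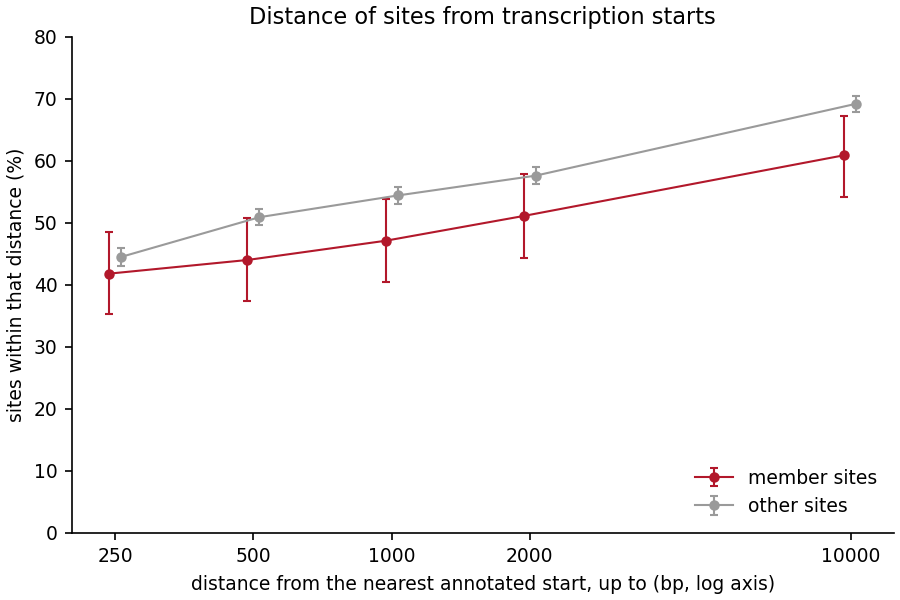
Share of sites (vertical axis, percent) within 250 to 10000 bp of the nearest annotated transcription start (horizontal log axis), for members in red and other sites in grey, with exact 95% intervals. The members lie below the other sites at each distance, at 60.9% against 69.2% within 10000 bp.

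Members were also more isolated from other differing sites. The nearest other site lay at a median of 74006 bp from a member and 27530 bp from the other sites, and the median number of sites within 100 kb was 1 for members and 2 for other sites. Pairs closer than 1500 bp were rare in both, at 3.69% of members (1.70 to 6.89) and 2.91% of other sites (2.47 to 3.39). A member was the single differing site of its gene in 59.0% of cases, against 61.7% of other sites. The sets were not matched for WT level here.

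At promoters, members had a lower median GC and fewer CG dinucleotides than the other sites. A site was counted at a promoter when it shared at least 150 bases with a 300-base window around an annotated start, which gave 87 members and 2209 other sites, beside 32851 windows in all. Sites at starts that are not listed could be missed. Median GC was 61.3% in member windows, 64.7% in windows of other sites and 52.7% in all windows, and the ratio of observed to expected CG dinucleotides was 0.734, 0.823 and 0.384. When the windows at sites were placed in 4 bins of rising GC, 5.18%, 4.73%, 3.25% and 1.92% were members. On autosomes alone these shares were 4.48%, 3.94%, 3.11% and 1.76%, so the order of the bins did not rest on X. Windows were not compared at equal WT level.

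The 10 motifs below were searched on both strands of these windows. CCAAT of NFY was in 58.6% of member windows, 50.6% of windows of other sites and 37.4% of all windows, and GGGCGG of SP and KLF factors in 78.2%, 81.4% and 35.7%. CCGGAAG of ETS factors was in 21.8%, 19.4% and 8.86%, and AAGATGGCG of YY1 in 5.75%, 3.49% and 1.40%. AACCACA of RUNX factors was in 5.75%, 3.30% and 5.27%, and TGACGTCA, the cyclic AMP response element, in 3.45%, 4.39% and 1.79%. TGANTCA of AP-1 was in 1.15%, 3.80% and 7.81%, and the palindromic NRF1 motif in 1.15%, 2.26% and 0.971%. CACGTG, an E-box, was in 8.05%, 11.2% and 7.15%, and TATAAA, the TATA box, in 5.75%, 4.35% and 13.6%. With 87 member windows, 1 window is 1.15%, so most of these differences rest on few windows.

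Most genes with a member had no further differing site, and further sites of the same genes are given as a description, since the rule takes the smallest differences. The 244 members were assigned to 230 genes, of which 82 had 152 further sites higher in WT that were not members. The difference of concentrations at these further sites had a median of 4.3 (2.79 to 5.56), beside 3.27 at members and 4.45 over all 6718 sites higher in WT. Like the 6718 sites, the further sites include some below the WT minimum of 4.3. In Lef1, the member kept 16, 22 and 0 reads in UTX-deficient cells, while a site from 131019450 to 131019850 held 4, 3 and 0 in UTX-deficient cells and 59, 42 and 39 in WT. In Tle3, the member at the Gm34157 start held 8, 4 and 0 reads in UTX-deficient cells and 37, 22 and 22 in WT, while a site 11 bp from a start held 1, 4 and 0 in UTX-deficient cells and 49, 35 and 25 in WT. In Cd47, a site 167 bp from a start held 3, 1 and 0 reads in UTX-deficient cells and 29, 40 and 16 in WT. The rule itself separates such sites, few reads in UTX-deficient cells stand behind them in Tle3 and Cd47, and no difference within a gene was tested.

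By function, members were spread over many gene groups at low counts. Of sites with the WT minimum, 7 of 62 assigned to progenitor and stem-like genes were members (11.3%; Cd28, Ets1, Lef1, S1pr1 and Zeb1), beside 4.40% over all sites. Immediate early and AP-1 genes had 5 of 71 (7.04%; Btg1, Egr3 and Jun), effector and cytotoxic genes 2 of 22 (9.09%; Batf and Irf4), and receptor signalling and lineage genes 2 of 62 (3.23%; Nfatc1 and Ptpn6). A single member each fell to the methylation machinery (1 of 23, Kdm6a), ribosomal proteins (1 of 26, Rpl10), Mediator and general transcription factors (1 of 18, Med12) and chaperones (1 of 19, Dnajb11, with 3, 9 and 0 reads in UTX-deficient cells and 36, 28 and 27 in WT). None of 28 sites at splicing factor genes was a member, nor any of 24 at cell cycle genes, 13 at translation factor genes, 9 at mitochondrial respiratory and ribosome genes, 8 at proteasome genes or 2 at core histone genes. Developmental regulators of the Polycomb target type had no site at all. The lists were not tested against each other, and the progenitor share rests on 7 sites.

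Sites at markers of other cell types that the sort could hold were few, so the share of members among them is not read against the 4.40% over all sites. Of the CD8 T cell identity genes, 8 of 12 had a site higher in WT, and none of their 10 sites with the WT minimum was a member. None of 7 sites at CD4 and regulatory T cell markers, 5 at natural killer and innate lymphoid markers and 1 at a B cell marker was a member, and myeloid and dendritic markers had no site with the WT minimum. The 1 member among 6 sites at pancreatic, stromal and endothelial markers was the Prss2 assignment in the receptor beta locus.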

How the data were processed

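UTX CUT&Tag was measured in 3 UTX-deficient and 3 WT samples, and the authors' comparison of the groups was used as deposited. The submitters' processing notes name DiffBind, MACS2, Picard, SAMtools, Bowtie2, cutadapt and FastQC and the build mm10, without roles or versions. The file headers give only short names such as Conc_WT and Fold. Concentrations were taken as deposited log2 mean normalized reads per group with 0 as the floor. The fold was taken as a deposited log2 value, UTX-deficient over WT, and was negative at all sites higher in WT. Each p-value and FDR was deposited by the authors, and all listed sites have an FDR under 0.05. The sources do not say whether peak calling pooled the samples. Reads per library were recovered from the deposited concentrations, since 3 times the antilog of a group's concentration is a sum of whole reads, each times what 1 read of its library is worth. The recovery gave 6737 of 6739 sites and was tested on simulated data. Sums shifted at random by 0.05 to 0.45 found a solution 0.900% of the time in WT and 0% in UTX-deficient cells. Recovered libraries carry no number of the labels, and nothing says that samples came from separate animals, so tests measure the spread between these samples. Over all sites, limma 3.58.1 in R 4.3.3 tested log2(normalized reads + 1) with a mean trend, no filter and Benjamini-Hochberg adjustment. Its step was run on simulated data only without the near-empty library and with most sites unchanged. That simulation therefore does not cover the main fit. Shares carry exact Clopper-Pearson 95% intervals, and intervals on reads cover counting error only.

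Gene ends and biotypes came from a RefSeq gene table and starts from a RefSeq promoter table (250 bases before to 50 after a start), both of GRCm38.p6, and distances run from the middle of the 401 bp site. Of the members, 236 could be placed against their assigned gene and 225 lay on a chromosome with listed starts. Named sites are the Kdm6a site, the 10 with the highest UTX-deficient level, the 10 with the smallest difference, the 5 with the highest WT level, the 5 with the smallest FDR, 3 on each side of each limit, up to 4 per gene list, the 5 genes with most members, and the 5 with the highest and lowest share from library 1, with numbered gene models passed over. The members and the 22 gene lists were chosen with earlier results of these data known. Alternatives were other limits of the rule, each library left out, scaling to reads in all non-member sites higher in WT, a pseudocount of 0.5 or 4, a filter at a mean of 8 and other distances. IgG control libraries were not used here. The result for 1 gene list and 1 member site is not reported here.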

Additional observations from a re-analysis of the deposited data

How the results depend on the processing

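No paired analysis was possible because the recovered libraries carry no replicate number. The number of members, 244, was 139 with a WT minimum of 4.6, 42 with a largest difference of 3.0 and 878 with one of 4.0, and ran from 9 to 1054 when single libraries were left out, lowest without UTX-deficient library 2 and highest without the near-empty library. The share of X sites that were members, 23.8%, was 3.75% with a largest difference of 3.0 and 38.8% with one of 4.0, and ran from 2.50% to 46.2% with single libraries left out. Library 1 gave 31.7% and 24.6% of the UTX-deficient signal at these limits, and 29.6% at FDR 0.01, against 27.6%. The UTX-deficient level at members, 11.1% of WT, ran from 4.58% to 16.6% with single libraries left out. It turned to 309% when libraries were scaled to their reads in the other sites without the near-empty library, a scaling that by construction sets the loss at those sites to none. The share near a gene end, 47.5%, was 66.1% within 10 kb. By limma, 20 sites were called higher in UTX-deficient cells and 3 without the near-empty library, with a range of 3 to 20 over single libraries left out. At sites higher in UTX-deficient cells the recovered reads are the solution with the fewest reads, so these calls are not read. Of 405 limma values for 45 named sites under these alternatives, 396 kept their direction and call, 9 lost the call, all at Pisd-ps3 sites without a WT library (adjusted p 0.0609 to 0.0990), and 0 turned. Every listed site had been selected by the authors' FDR in this contrast, so the kept calls are a description. The rule without single libraries and the alternatives for the X share and the share of library 1 were chosen after seeing the data. Depth limits the UTX-deficient values, with medians of 4 and 7 reads per member in libraries 1 and 2.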
